A study of Homo sapiens with 2 samples.

Results

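The genes described here encode the transferases that attach a polar group to drugs, hormones and metabolites: the UDP-glucuronosyltransferases (UGT), the glutathione S-transferases (GST) and the sulfotransferases (SULT). Members were all entries whose symbol begins with UGT1A, UGT2A or UGT2B (the rule would also take UGT1B), with GST followed by a class letter A, K, M, O, P, T or Z and a digit, or with MGST or SULT followed by a digit. The rule found 56 of 25343 entries: 9 UGT1A, 10 UGT2, 20 soluble GST, 3 microsomal GST (MGST) and 14 SULT. It takes the pseudogenes GSTA7P, GSTM2P1 and SULT1C2P1 and leaves out UGT3, UGT8 and GSTCD. Huh7 is an established line of hepatocyte-derived human carcinoma. The cells were seeded at 500000 per well in serum-supplemented DMEM and then held for 6 days in medium containing glucose at either 4.5 g/L (high glucose) or 0.45 g/L (low glucose), passaging live cells. Each medium gave 1 library of total RNA, so no test between media is possible and every difference below describes 2 libraries without a replicate check. Values are TPM, which corrects for transcript length and sums to 1000000 per library.

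UGTs transfer glucuronic acid from UDP-glucuronic acid, a nucleotide sugar made from UDP-glucose, to bilirubin, steroids, bile acids and drugs in the endoplasmic reticulum. GSTs couple glutathione to electrophiles or use it to reduce peroxides, and SULTs move sulfate from the donor PAPS to steroids, phenols and catecholamines in the cytosol. The liver is the main site of all of these reactions, and the conjugates leave through ABC transporters of the canalicular and basolateral membranes.

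All 10 hepatocyte markers examined were present, between 211 and 20859 TPM in high glucose and between 154 and 16441 TPM in low glucose. Endothelial markers summed to 2.14 and 2.19 TPM in high and low glucose and fibroblast markers to 30.3 and 40.6 TPM, while 3 of 4 kidney markers (UMOD, SLC12A1 and AQP2) were at 0. Of 4 leukocyte markers, PTPRC and CD3E stayed under 1 TPM, while LYZ stood at 550 and 198 TPM and CD68 at 20.4 and 39.3 TPM. Of 5 intestinal markers, FABP2 was at 0 and the list summed to 343 and 330 TPM, including CDX2 at 57.5 and 46.8 TPM, a factor that also acts on UGT genes of the gut. The part of these markers in the results was not tested.

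The summed level of the conjugating enzymes was nearly equal in both media. The 56 entries summed to 3802 TPM with high glucose and 3609 TPM with low, a ratio of 0.949; paired values below give high glucose first. In bulk RNA, fewer cells of a type and less RNA per cell cannot be told apart. GSTP1, the pi class enzyme, dominated both libraries at 1875 and 1827 TPM and ranked 62nd of all entries by mean. The GST group, soluble and microsomal, was far above SULT, and UGT was lowest: soluble GST summed to 2777 and 2628 TPM, MGST to 697 and 655 TPM, SULT to 248 and 258 TPM, UGT2 to 64.9 and 51.6 TPM and UGT1A to 15.7 and 15.3 TPM. The ratio of low to high glucose was 0.795 for UGT2, the lowest of the 5 families, and lay between 0.940 and 1.04 for the others. The SULT sum was slightly higher in low glucose (ratio 1.04) but slightly lower after median-of-ratios scaling.

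**Figure D1:**
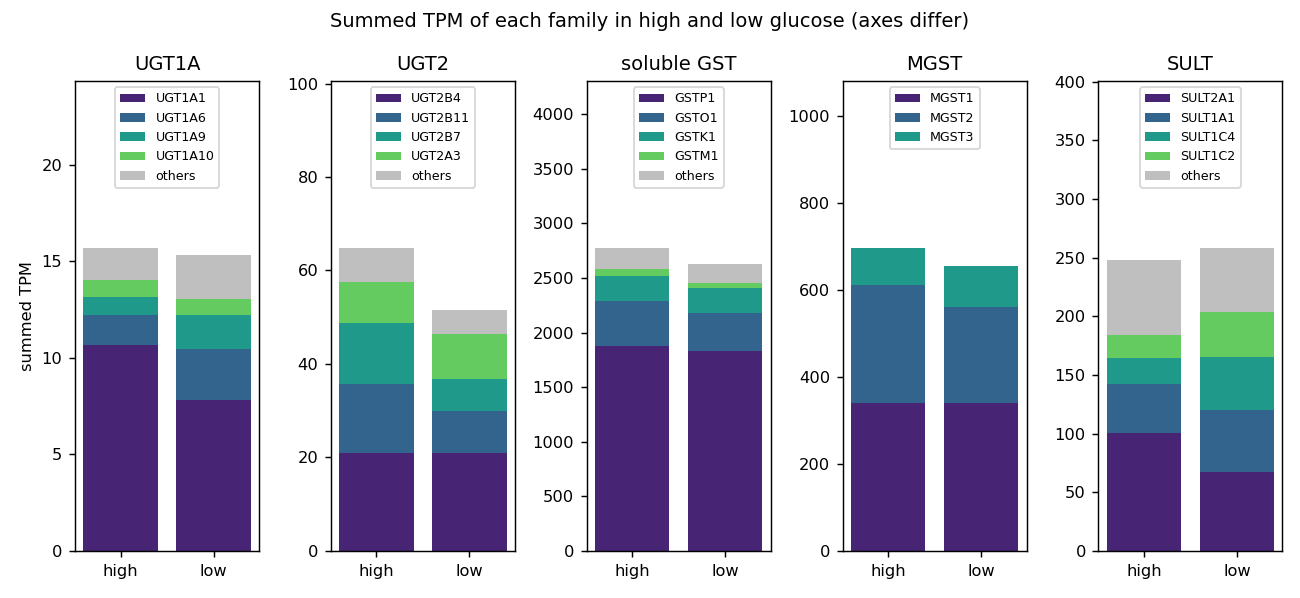
Summed TPM (vertical axis, from 0, with a scale of its own per family) in the high glucose and low glucose library, stacked by the 4 most abundant members and all others (3 members for MGST). The UGT2 bars reach 64.9 TPM (high glucose) and 51.6 TPM (low glucose). Among SULT blocks, that of SULT2A1 is smaller in the low glucose library than in the high glucose library. The SULT1C2 and SULT1C4 blocks are larger there, while the SULT sums are 248 TPM (high glucose) and 258 TPM (low glucose). SULT2A1 remains the largest SULT block in both libraries.

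A mean of at least 1 TPM over both libraries was reached by 34 members, and these were compared on the log2(TPM + 1) scale, as the low glucose value minus the high glucose value. The scale understates the differences of low genes. Another 15 members lay above 0 but below that level, none above 0.89 TPM in either library. The 7 others were listed at 0 in both: GSTA3, GSTA5, GSTM2P1, GSTT1, SULT1C3, SULT4A1 and SULT6B1. Of the 34, 15 lay above 0 and 19 below, with a median of -0.04 against 0.05 over the 13745 entries compared. Of those 13745 entries, 7498 lay above 0 and 6227 below. By a 2-fold rule (1 or more in either direction on this scale), 1 member was higher and 1 lower. Over all entries compared, 3.65% were 2-fold higher and 1.10% were 2-fold lower. Both members past the rule, GSTT2 and GSTT2B, are near-identical copies listed at 0 in one library each, and neither met the rule once they were summed. Within 1.5-fold on this scale lay 26 of the 34 members (76.5%) and 80.9% of all entries. Among these 26, UGT1A6, UGT1A9, UGT2B10, GSTM2, SULT1A3 and SULT1A4 differed by more than 1.5-fold in TPM without the pseudocount. The largest such ratio was 1.82, for UGT1A9, and this measure was not taken over all entries. At 1.5-fold, 3 members were higher (GSTT2, SULT1C2 and SULT1C4) and 5 lower (GSTT2B, GSTM1, GSTM3, UGT2B7 and UGT2B11), beside 13.0% and 6.07% of all entries. The sum of SULT1A3 and SULT1A4, which share their sequence, was also lower by more than 1.5-fold (-0.61), although neither entry was by itself.

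**Figure D2:**
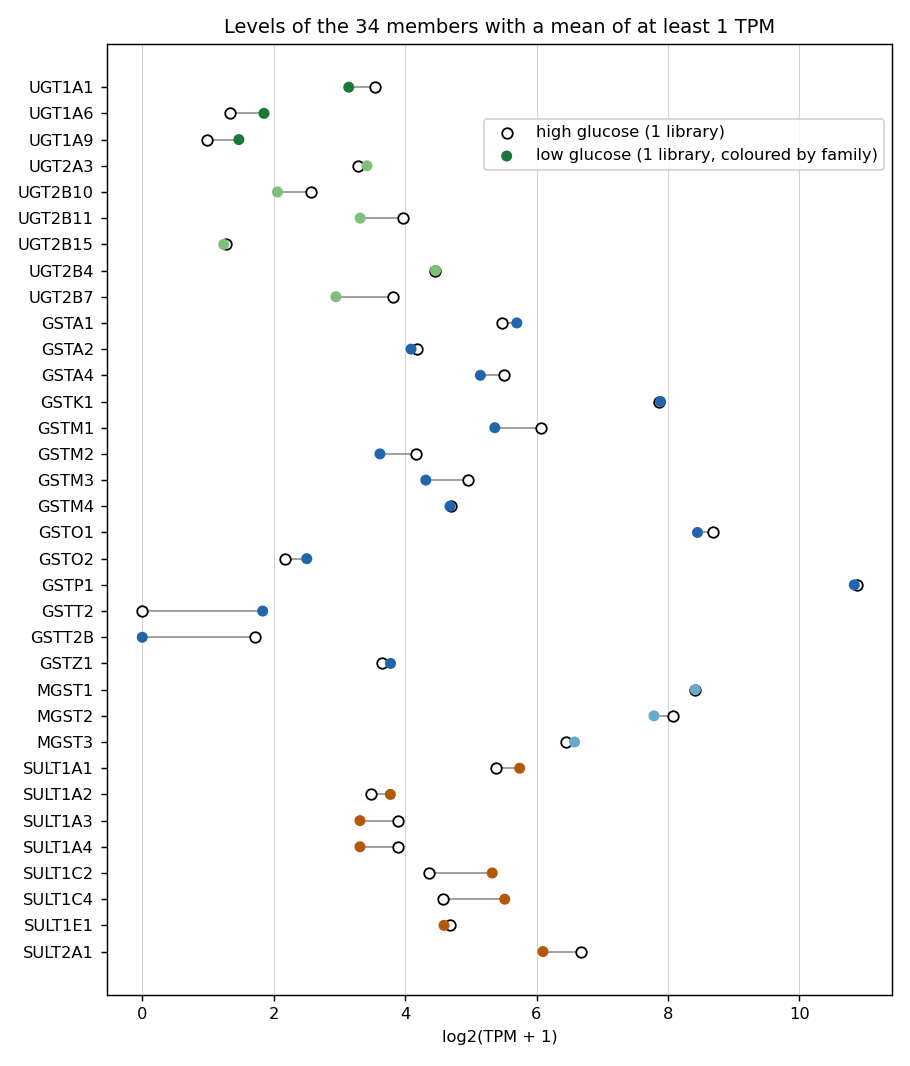
Level of each of the 34 members as log2(TPM + 1) on the horizontal axis, with an open circle for the high glucose library and a filled circle, coloured by family, for the low glucose library. Most pairs of circles lie close together, and GSTP1 is highest at 1875 and 1827 TPM.

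**Figure D3:**
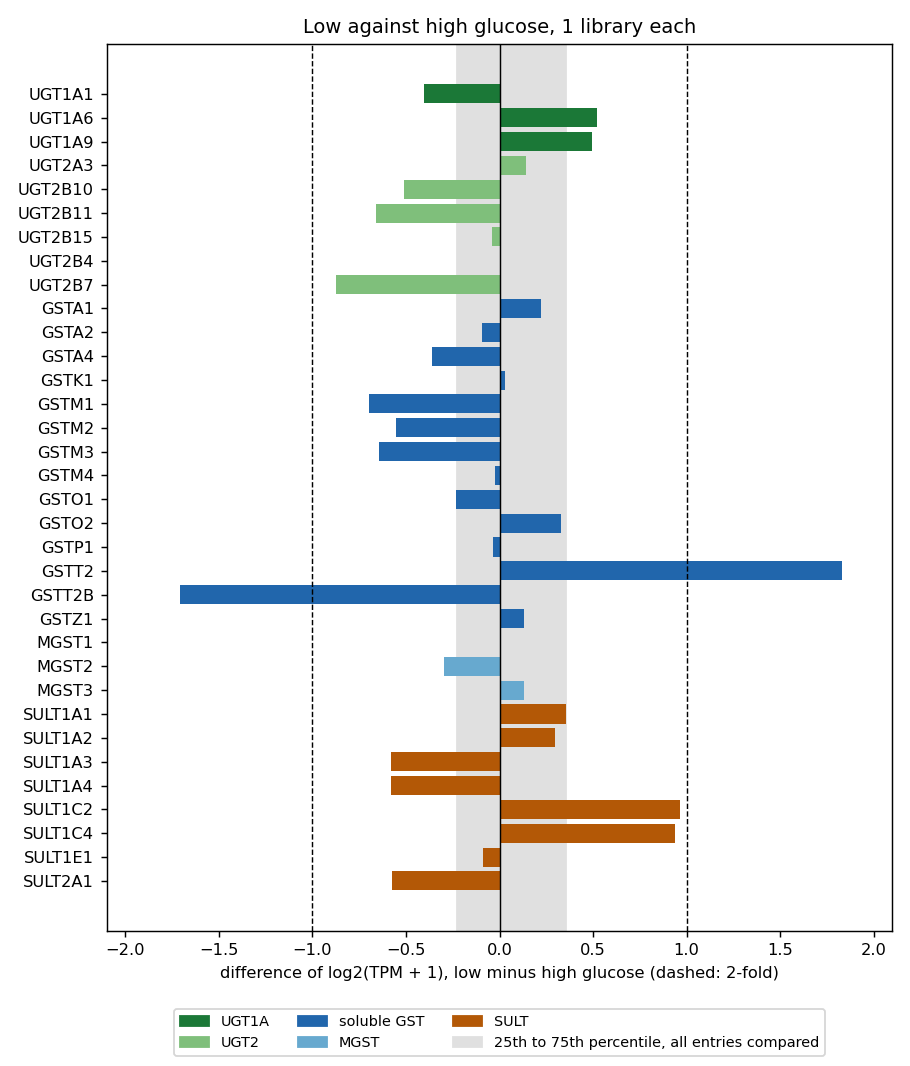
Low glucose minus high glucose on the log2(TPM + 1) scale (horizontal axis), per member, coloured by family, with dashed lines at 2-fold and a grey band from the 25th to the 75th percentile of all entries compared (-0.23 to 0.35). GSTT2 and GSTT2B cross the dashed lines in opposite directions, and SULT1C2 and SULT1C4 come nearest to them among the rest.

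The UGT1A entries are alternative first exons of 1 locus on the long arm of chromosome 2, and their hg19 intervals all overlap. UGT1A1 (chromosome 2, 234668919 to 234681945), the enzyme of bilirubin glucuronidation, lies innermost, and UGT1A8 (234526291 to 234681945) spans furthest. In the GENCODE release 29 transcripts, all 9 members carry the same 735 coding bases after the first exon, while the first exon adds 864 coding bases in UGT1A1, 861 in UGT1A6 and 855 in UGT1A9. The junction is shown for these members because only reads that reach the first exon can tell them apart. The last 30 bases of the first exon are in lower case and the first 30 of the shared second exon in capitals, 5′ to 3′ on the transcript.
UGT1A1: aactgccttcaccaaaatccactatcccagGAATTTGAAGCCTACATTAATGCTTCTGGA
UGT1A6: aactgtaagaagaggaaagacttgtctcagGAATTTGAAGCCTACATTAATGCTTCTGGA
UGT1A9: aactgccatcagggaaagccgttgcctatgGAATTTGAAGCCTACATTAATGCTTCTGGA

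UGT1A1 stood at 10.7 TPM in the high glucose library and 7.83 TPM in the low glucose library (-0.40 on the log2 scale, as in all parentheses with a single value below). UGT1A6, which conjugates small planar phenols, stood at 1.52 and 2.61 TPM (0.52). UGT1A9, which acts on bulky phenols, stood at 0.97 and 1.77 TPM (0.49). UGT1A1 was thus the lower and the 2 others the higher in low glucose, all within 1.5-fold on this scale. The remaining entries stayed under 1 TPM in both libraries: UGT1A10 (0.89 and 0.82 TPM), UGT1A3 (0.10 and 0.75 TPM), UGT1A4 (0.44 and 0.12 TPM), UGT1A5 (0.17 and 0.24 TPM), UGT1A7 (0.52 and 0.50 TPM) and UGT1A8 (0.42 and 0.69 TPM). The share of UGT1A1 in the locus sum was 68.0% in high and 51.1% in low glucose, and the 8 other entries together stood at 5.03 and 7.50 TPM. The locus sum itself was nearly level, at 15.7 and 15.3 TPM (-0.03). How reads of the shared exons were divided between entries is not recorded in the values, so the sum is the firmer quantity.

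UGT2 genes, which glucuronidate steroids, bile acids and opioids, lie in a cluster on chromosome 4. UGT2B4 (70345883 to 70361626), a bile acid enzyme, was the most abundant and level at 20.9 and 21.1 TPM. UGT2B7 (69962193 to 69978705), the main enzyme of morphine glucuronidation, stood at 13.1 and 6.71 TPM. Only 1.75% of all entries compared had a lower difference than its -0.87, the furthest below 0 of any member apart from GSTT2B. UGT2B11 stood at 14.7 and 8.96 TPM (-0.66) and UGT2B10, which conjugates tertiary amines such as nicotine, at 4.93 and 3.16 TPM (-0.51). UGT2B15, an androgen enzyme, was level at 1.43 and 1.36 TPM, and UGT2A3 stood at 8.71 and 9.70 TPM (0.14). UGT2B7, UGT2B10 and UGT2B11 thus carried the lower family sum, while UGT2B4 (0.01) and UGT2B15 (-0.04) were near 0. UGT2A1, UGT2A2, UGT2B17 and UGT2B28 stayed at or under 0.35 TPM. The interval deposited for UGT2B10 (69681711 to 69886115) contains that of UGT2A3.

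The UGT2B genes are similar in sequence. Coding sequences of UGT2B7 and UGT2B11 agreed at 91.8% of positions, UGT2B7 and UGT2B4 at 90.4% and UGT2B10 and UGT2B11 at 94.8%. To gauge how far a short read could separate members, the 50-base stretches of 1 coding transcript per member were searched for. The search covered the GENCODE transcripts of other genes. Genes with a hyphenated name that includes the member's own symbol were not counted as other genes. The read length of the study is not given in the sources used here. Of the stretches of UGT2B7, 93.3% occurred in no other gene, compared with 52.7% for UGT2B11, 68.3% for UGT2B10 and 96.8% for UGT2B4. By this measure UGT2B7 was mostly distinct from its neighbours and UGT2B11 less so.

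Of 14 soluble GSTs compared, 10 lay within 1.5-fold (71.4%, against 80.9% of all entries), among them GSTP1. Outside lay GSTM1, GSTM3, GSTT2 and GSTT2B. GSTT2 and GSTT2B are near-identical copies whose sum lay at 0.12, so their separate entries lower that share. After GSTP1 came GSTO1, an omega class enzyme with thioltransferase activity, at 410 and 349 TPM (-0.23) and GSTK1, the kappa class enzyme of mitochondria and peroxisomes, at 231 and 236 TPM (0.03). The alpha class, typical of adult hepatocytes, stood much lower. GSTA1 stood at 43.5 and 51.0 TPM (0.22), GSTA2 at 17.2 and 16.0 TPM (-0.09) and GSTA4, which clears the lipid peroxidation product 4-hydroxynonenal, at 44.5 and 34.4 TPM (-0.36). GSTP1 alone made up 67.5% of the soluble GST sum in high and 69.5% in low glucose, whereas GSTA1 made up 1.57% and 1.94%. GSTZ1, the enzyme of maleylacetoacetate isomerization in tyrosine breakdown, stood at 11.5 and 12.7 TPM (0.13), and GSTO2 at 3.52 and 4.67 TPM (0.33).

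The mu class on chromosome 1 was the GST class furthest below 0. GSTM1 (110230418 to 110236367), which detoxifies epoxides, stood at 66.0 TPM with high glucose and 40.2 TPM with low (-0.70). GSTM3 (110276554 to 110283660) stood at 30.2 and 18.9 TPM (-0.65) and GSTM2 (110210644 to 110226619) at 17.0 and 11.3 TPM (-0.55). GSTM4 (110198698 to 110208123), in the same cluster, was level at 25.1 and 24.7 TPM (-0.02), and GSTM5 was listed at 0.11 and 0 TPM. The class summed to 138 and 95.1 TPM, with a median of -0.60 over the 4 members compared. Of the 50-base stretches, 37.1% of GSTM1 and 25.5% of GSTM2 occurred in no other gene, so reads of these entries can be exchanged, but 94.1% of GSTM3 did. GSTM3 shared no such stretch with another member. The part of read exchange in the lower values of this class was not tested.

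Theta class entries were listed at 0 in 1 library each. GSTT2 and GSTT2B share 1 hg19 interval in the files (chromosome 22, 24299601 to 24326106). GSTT2 was listed at 0 TPM for high glucose and 2.56 TPM for low, and GSTT2B at 2.27 and 0 TPM. Together they stood at 2.27 and 2.56 TPM (0.12). In GENCODE their coding sequences differ at 1 of 729 aligned bases, A352G (GSTT2 to GSTT2B, counted from the first base of the start codon), and by 3 bases present only in GSTT2B. The surrounding bases are printed to show how little separates the copies, with the differing base in capitals.
GSTT2: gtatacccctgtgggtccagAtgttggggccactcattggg
GSTT2B: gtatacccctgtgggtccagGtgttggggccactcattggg
Of the 50-base stretches, 11.0% for GSTT2 and 9.52% for GSTT2B occurred in no other gene. How reads were divided between the 2 copies cannot be read from the values. They stand as 2 entries in the counts above, and their sum is given beside them.

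Microsomal GSTs, membrane enzymes that act on lipid peroxides and on leukotriene synthesis, were abundant and level. MGST1 stood at 340.7 and 340.9 TPM, a difference of 0.00. MGST2 stood at 270.0 and 220.0 TPM (-0.29) and MGST3 at 86.2 and 94.6 TPM (0.13). All 50-base stretches of these members (100%) occurred in no other gene.

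Among SULT members, SULT1C2 and SULT1C4 lay furthest above 0 and SULT2A1 and the SULT1A3 and SULT1A4 pair furthest below. SULT1C2 (chromosome 2, 108905095 to 108926371), a phenol sulfotransferase, stood at 19.6 TPM with high and 39.1 TPM with low glucose. Its neighbour SULT1C4 (108994421 to 109004270), a phenol sulfotransferase linked to fetal tissues, stood at 22.9 and 44.8 TPM. The differences were 0.96 and 0.94, just short of the rule and above those of 96.0% and 95.6% of all entries compared. Without a pseudocount the TPM ratios were 2.00 and 1.95, so SULT1C2 alone reached 2 among the 32 compared members (mean of at least 1 TPM) above 0 in both libraries, where 5.64% of all such entries did. The neighbouring SULT1C3 was at 0 and the pseudogene SULT1C2P1 at 0.28 and 0.39 TPM. Their coding sequences agree at 68.3% of positions, and 100% and 97.7% of the 50-base stretches of SULT1C2 and SULT1C4 occurred in no other gene.

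SULT2A1 (chromosome 19, 48373723 to 48389654), the bile acid and DHEA sulfotransferase of liver, went the other way. It was the most abundant SULT in both libraries, at 100.9 TPM with high glucose and 67.5 TPM with low (-0.57), and its share of the SULT sum was 40.7% and 26.1%. SULT1C2 and SULT1C4 together held 17.1% and 32.5% of it. SULT1E1, the estrogen sulfotransferase, was level at 24.7 and 23.1 TPM (-0.09). SULT1A1, the main phenol sulfotransferase of liver, stood at 40.9 and 52.6 TPM (0.35) and its neighbour SULT1A2 at 10.2 and 12.7 TPM (0.29). SULT1B1 and SULT2B1 stayed under 0.5 TPM.

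SULT1A3 and SULT1A4, copies of the catecholamine sulfotransferase gene, share 1 interval in the files (chromosome 16, 29471207 to 30215650) and held the same value in each library, 13.9 TPM for high glucose and 8.94 TPM for low (-0.58). Their coding sequences differ at 0 of 885 bases and their promoters at 0 of 300 bases. Their values cannot be separated; they stand as 2 entries in the counts above, and their sum stood at 27.7 and 17.9 TPM (-0.61). This pair lay below 0 and the SULT1A1 and SULT1A2 pair (51.1 and 65.3 TPM, 0.35) above it, although the coding sequences of SULT1A1 and SULT1A3 agree at 94.5% of positions. Of the 50-base stretches, 75.3% of SULT1A1 and 73.3% of SULT1A2 occurred in no other gene, against 2.27% of SULT1A3 and 1.64% of SULT1A4. How reads were divided between the 2 pairs was not tested.

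**Figure D4:**
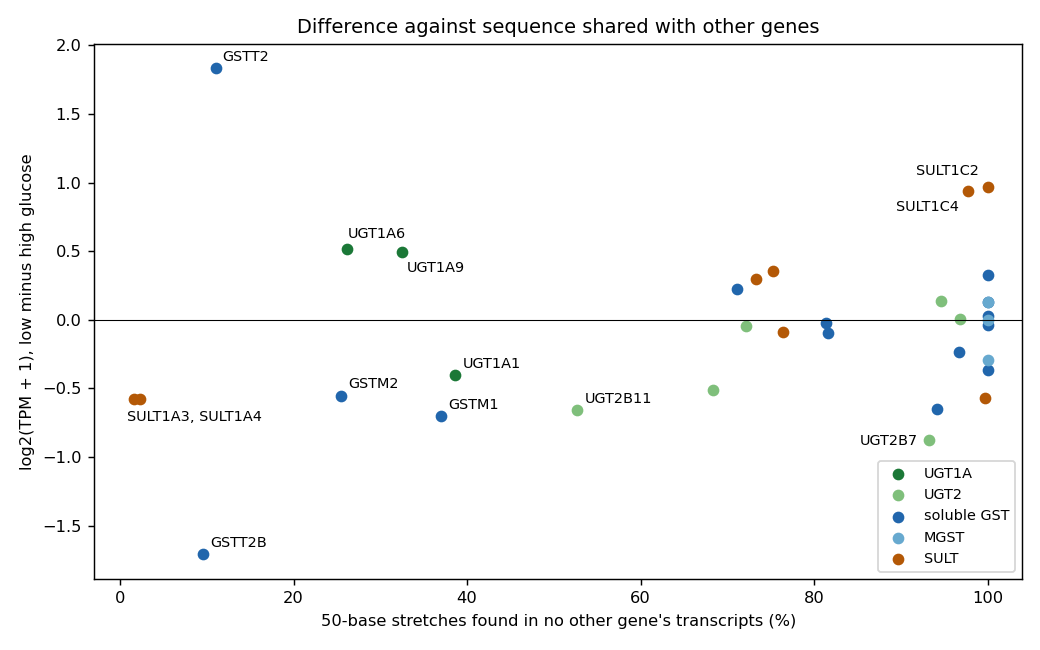
Low glucose minus high glucose on the log2(TPM + 1) scale (vertical axis), against the percentage of 50-base stretches of a member's transcript found in no other gene (horizontal axis), 1 point per compared member, coloured by family. SULT1A3 and SULT1A4 lie furthest left with the same difference and GSTT2 and GSTT2B next with opposite differences, while SULT1C2, SULT1C4 and UGT2B7 lie above 90% on the horizontal axis.

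Promoter sequence was examined for SULT1C2 and SULT1C4 because these neighbours had the highest differences outside the GSTT2 pair. The windows run from 250 bases before to 50 after the RefSeq start and are given on the plus strand of GRCh38.p14, at chr2:108288645-108288944 for SULT1C2 and chr2:108377704-108378003 for SULT1C4. Capitals mark matches on either strand to TGACNNNGC, the core of the antioxidant response element bound by NRF2 with small MAF proteins, or to the TATA box TATAAA.
SULT1C2: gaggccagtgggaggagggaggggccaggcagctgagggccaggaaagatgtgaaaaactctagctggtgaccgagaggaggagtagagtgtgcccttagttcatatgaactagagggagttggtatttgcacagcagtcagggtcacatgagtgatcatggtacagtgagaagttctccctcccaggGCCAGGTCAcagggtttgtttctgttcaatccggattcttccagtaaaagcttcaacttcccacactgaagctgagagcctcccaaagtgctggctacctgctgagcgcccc
SULT1C4: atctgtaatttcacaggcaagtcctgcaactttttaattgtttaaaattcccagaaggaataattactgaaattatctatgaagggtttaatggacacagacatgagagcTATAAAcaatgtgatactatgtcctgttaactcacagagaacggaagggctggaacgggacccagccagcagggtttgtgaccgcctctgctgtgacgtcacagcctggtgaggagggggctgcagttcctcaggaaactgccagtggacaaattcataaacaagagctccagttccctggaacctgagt
SULT1C2 held a match to the core (on the opposite strand) and none to TATAAA. SULT1C4 held a match to TATAAA and none to the core. The letters TATAAA were in 4049 of 35116 promoters searched (11.5%). Counted per gene and not per promoter, they were in 13 of 42 member genes, which have 46 promoters together. The distance of the match from the start was not taken into account, so it is not shown to be a working TATA box. The 2 promoters thus share neither of these matches, and their GC content was 54.0% and 45.7%.

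Promoters were in the RefSeq table for 42 members, 28 of them compared. The antioxidant core was in 4687 of 35116 promoters in the table (13.3%). Counted per gene, some of which have several promoters (46 promoters for the 42 members), it was in 11 of the 42 members and in 9 of the 28 compared, which are GSTA4, GSTM1, GSTO1, GSTP1, MGST1, SULT1C2, UGT1A6, UGT2B10 and UGT2B11. A match is a description and not a site in use. The best known of these, at GSTP1, is shown beside those of the 5 members with the core that lay furthest from 0, with the 9 matched bases in capitals on the strand that carries them (GRCh38.p14).
GSTP1: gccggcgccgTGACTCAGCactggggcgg
GSTM1: ctgggcgcccTGACTTCGCtcccggaacc
UGT2B10: ctaagtttaaTGACCTTGCaaatatcgtg
UGT2B11: ctaagattaaTGACCTTGCaagtaccctg
SULT1C2: acaaaccctgTGACCTGGCcctgggaggg
UGT1A6: aggtgaaagcTGACACGGCcatagttggt
The windows of UGT2B10 (chr4:68815771-68815799) and UGT2B11 (chr4:69214947-69214975) hold the same core, on the strand opposite to the gene in both. The GSTP1 window is chr11:67583736-67583764, that of GSTM1 chr1:109687642-109687670, that of SULT1C2 chr2:108288823-108288851 and that of UGT1A6 chr2:233692782-233692810. Differences of the 9 members ran from -0.70 for GSTM1 through -0.04 for GSTP1 and 0.00 for MGST1 to 0.96 for SULT1C2, so members with the core did not share a direction.

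Genes that supply the donors, remove the conjugates or control the families were read as 7 lists, chosen with earlier results of these data known. Over all entries compared, 3.65% were 2-fold higher and 1.10% were 2-fold lower, the shares to set beside the count of each list. Glutathione synthesis and recycling held the most genes past the rule: 5 of 10 genes were at least 2-fold higher and 0 lower, with a median of 0.85. These were SLC7A11, the cystine importer (13.4 and 118 TPM), its partner SLC3A2 (311 and 1795 TPM), CTH, which makes cysteine from cystathionine (11.0 and 60.1 TPM), and GCLC and GCLM, the subunits of the rate-limiting glutamate-cysteine ligase (30.01 and 66.2 TPM; 53.2 and 111 TPM). GCLC and GCLM were named after their values were seen. Glutathione synthetase and reductase, GSS (124 and 114 TPM) and GSR (191 and 216 TPM), were within 2-fold, the first also named after its values were seen.

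Donor supply for the other families differed less. Of 8 compared genes for UDP-glucuronic acid supply, HK2 alone was 2-fold higher (26.6 and 59.9 TPM) and 0 were lower, with a median of -0.19. The most abundant were the nucleotide sugar transporter SLC35D2 (229 and 196 TPM) and UGP2, which makes UDP-glucose (192 and 173 TPM). UGDH, which oxidizes UDP-glucose to UDP-glucuronic acid, stood at 130.4 and 151 TPM and was named after its values were seen. Of 9 genes for PAPS supply 0 were 2-fold higher and 0 lower (median -0.02). Its most abundant members were the phosphatase gene IMPAD1 (61.0 and 66.7 TPM) and the Golgi PAPS transporter SLC35B2 (61.6 and 60.9 TPM), and the PAPS synthases PAPSS1 (51.5 and 31.9 TPM) and PAPSS2 (19.9 and 24.0 TPM) were named after their values were seen.

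Export genes lay mostly above 0. Of 12 compared genes for export and uptake, 2 were at least 2-fold higher and 0 lower, with 10 above 0 and a median of 0.60. Among all 13745 entries compared, 7498 were above 0 and 3.65% were 2-fold higher. ABCC2, the canalicular exporter of glucuronides and glutathione conjugates, stood at 55.1 and 128 TPM, and ABCC3, its basolateral counterpart, at 26.1 and 84.0 TPM. The most abundant by mean, ABCC6, stood at 95.0 and 105 TPM. Among 20 compared genes of mercapturate formation and conjugate breakdown, CHAC1, which degrades glutathione, was the 1 past the rule (7.56 and 123 TPM), with a median of 0.05. SUMF2 (111 and 156 TPM), a homologue of the sulfatase-activating enzyme, and the aminopeptidase LAP3 (147 and 113 TPM) were the most abundant. Other transferases had 0 of 11 past the rule in either direction (median -0.13), with the histamine methyltransferase HNMT at 68.8 and 51.8 TPM and the thiosulfate sulfurtransferase TST at 65.9 and 39.6 TPM.

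Of 17 compared regulators, 2 were 2-fold higher and 0 lower, with 11 below 0 and a median of -0.07. Among all 13745 entries compared, 6227 were below 0 and 3.65% were 2-fold higher. The small MAF genes MAFG (21.4 and 67.8 TPM) and MAFK (17.2 and 47.5 TPM), partners of NRF2 on the antioxidant element, were the higher ones. NFE2L2 itself, which encodes NRF2, stood at 347 and 229 TPM (-0.60), and the liver factor gene CEBPA at 333 and 193 TPM (-0.78). The conjugating enzymes, with 1 of 34 past the rule in each direction and 0 after summing the GSTT2 pair, differed in count from the glutathione and export lists; that contrast between lists was not tested.

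**Figure D5:**
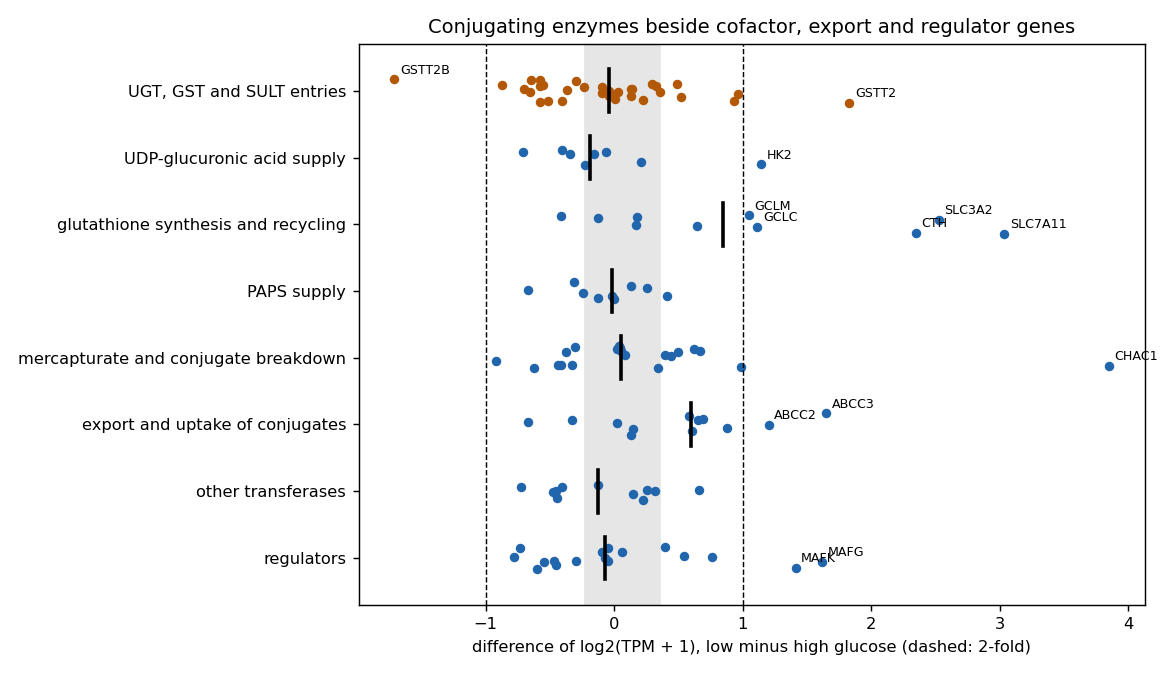
Low glucose minus high glucose on the log2(TPM + 1) scale (horizontal axis), for compared UGT, GST and SULT members (orange) and compared genes of each of the 7 lists (blue), with a black bar at the median, dashed lines at 2-fold and a grey band from the 25th to the 75th percentile of all entries compared. The medians of glutathione synthesis (0.85) and export (0.60) lie right of the band, and that of the conjugating enzymes (-0.04) lies inside it.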

How the data were processed

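RNA was sequenced from Huh7 cells, 1 library per medium. The authors deposited TPM for each gene entry, so named per the file headers, with a symbol and an interval on hg19. The submitters' processing notes name cutadapt, RSEM 1.2.21 (which divides reads that fit several genes) and hg19. The aligner, annotation, strand and depth are not named in the labels or file headers, and TPM keeps no depth, so no counting interval is given. Groups came from the treatment label.

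The files were joined by row. Entries with a mean of at least 1 TPM were compared by log2(TPM + 1), low minus high glucose, with a rule at 2-fold, using Python 3.11.15 and pandas 2.3.3. The code was run on simulated data, with 3-fold changes placed in entries of at least 10 TPM and an assumed noise. That run does not bear on entries near 1 TPM or on the spread between cultures. All members at that level are named; per list, the 2 most abundant and up to 3 past the rule with the largest differences are named, and exceptions are stated. Members and lists were chosen with earlier results of these data known. Promoters came from RefSeq (GRCh38.p14) and transcripts from GENCODE release 29 (GRCh38), matched by symbol for 42 and 52 of 56 members; no coordinates were converted. Alternatives were 3 scalings, pseudocounts, filters, thresholds and sums of entries sharing a locus.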

Additional observations from a re-analysis of the deposited data

How the results depend on the processing

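With 1 library per medium, differences cannot be set against the spread between cultures, and the depth behind low entries is unknown. No paired analysis was possible because each medium has 1 library. Median-of-ratios scaling, upper-quartile scaling and the total without the 50 most abundant entries moved the median of all entries from 0.05 to between -0.03 and 0.08. No member was 2-fold higher or lower (0 and 0) with a pseudocount of 5, among entries of at least 10 TPM, or with the GSTT2 and SULT1A3 pairs summed, a choice made after seeing the data. At 1.5-fold 3 were higher and 5 lower. Over all entries, 234 were higher and 79 lower with a pseudocount of 5, 293 higher at 10 TPM, 1786 and 835 at 1.5-fold and 119 and 22 at 3-fold. SULT1C2 was lowest with a pseudocount of 5 (0.845) and reached 2-fold only as a ratio without a pseudocount; UGT2B7 ranged from -0.96 to -0.63. Log2 of the SULT sum's ratio was 0.06, and -0.027 after median-of-ratios scaling. The MGST median was 0.00, and -0.087 and -0.044 after median-of-ratios and upper-quartile scaling. The UGT1A median (3 members) was 0.49. It was 0.25 without the 50 most abundant entries, but there the filter on level let in more than these 3 members. UGT1A6, UGT1A9 and UGT1A1 themselves stood at 0.58, 0.56 and -0.38 in that setting. The median was 0.74 and 0.18 with pseudocounts of 0.1 and 5, 0.08 with no filter (all 9 entries) and -0.033 with its entries summed. Glutathione synthesis held 4 genes 2-fold higher, against 5 in the main setting, after median-of-ratios scaling and with a pseudocount of 5. In the lists, 2 genes of conjugate breakdown were higher without the top 50 and with a pseudocount of 0.1, and 1 was lower after median-of-ratios scaling. At 1.5-fold, 4 were higher and 2 lower there, 7 higher and 1 lower in export, 1 higher and 1 lower among other transferases, 3 lower among regulators, and 1 lower in each of UDP-glucuronic acid and PAPS supply. At 3-fold, 0 were higher in UDP-glucuronic acid supply, 3 in glutathione synthesis, 1 in export and 1 among regulators. Apart from the scalings, the sums and the entries let in by the filter, the cause of these moves was not tested.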
